A study of Homo sapiens with 22 samples.

Results

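The 10 genes described here encode secreted cytokines. They are the colony-stimulating factor genes CSF1, CSF2 and CSF3, the interleukin-6 family genes IL6, IL11 and LIF, the interleukin-1 genes IL1A and IL1B, and IL24 and TNF. They were chosen by name, with earlier results of these data known, so counts of members set beside all genes are a description. The rows used are those of the deposited expression tables that carry these symbols, and no member had more than 1 row in a table. The members are 10 of 60669 genes in each of 2 tables, and 9 of 14954 genes in the other, which does not list CSF3. RNA-seq had been run on 22 libraries, all from MDA-MB-231, a long-established line of human breast cancer cells, with 2 libraries in each of 11 groups. The title of the series links BET proteins with the m6A writer complex, and its design text speaks of looking for targets.

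Every group was labelled wild type in genotype, and the labels mention infection with lentivirus, drug treatment or both. In the knockdown table the groups were B5, shM3, and shM3 plus an add-back of METTL3-WT or of METTL3-CD, here written shM3_WT and shM3_CD, each labelled 2 to 3 months. The other groups were labelled 3 days. The DMSO table held DMSO, JQ1, Molib and I-BET151, and the CTRL table held CTRL, JQ1 and MW_JQ1, with each compound labelled 0.5 µM and MW_JQ1 carrying the same label as JQ1. The sources used here do not give the meaning of B5, CD and MW, whether a line was 1 clone, or which promoters were used. The JQ1 columns of the DMSO table carry the names of the CTRL table's JQ1 samples, so they were assigned to the remaining JQ1 samples by elimination and are called libraries a and b.

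CSF1, CSF2 and CSF3 drive the growth and survival of macrophages, of granulocytes together with macrophages, and of neutrophils. IL6, IL11 and LIF signal through the shared receptor chain IL6ST to JAK kinases and STAT3, while the interleukin-1 and TNF receptors lead to NF-kB, a transcription factor that itself binds the control regions of many cytokine genes. BET proteins read acetylated histones and help RNA polymerase II to elongate, METTL3 is the catalytic subunit that methylates adenosines in RNA, and cytokine mRNAs are known for AU-rich elements in their 3′ untranslated regions, which decay factors of the ZFP36 family bind.

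The AU-rich stretches are shown first because the choice of the members by name did not use them. For each gene the 3′ untranslated region of a GENCODE 29 transcript was searched in the mRNA sense. The patterns were ATTTA, the DNA spelling of the AU-rich core, and the longer TTATTTATT, which contains it. All 10 members had more ATTTA per kilobase than the median of 18765 protein-coding genes (1.52 per kilobase), and 5 of 10 held at least 1 TTATTTATT, against 8.3% of those genes. The 30-base windows below hold the densest run of ATTTA in 6 members, with each ATTTA in capitals and overlapping copies run together.
CSF2: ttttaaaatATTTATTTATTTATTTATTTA
TNF: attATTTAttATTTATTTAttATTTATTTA
IL1B: agcaaccgcttccctATTTATTTATTTAtt
IL11: ccaaagccagatcttATTTATTTATTTAtt
CSF3: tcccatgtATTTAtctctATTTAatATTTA
IL6: ttttaattatttttaATTTAttaatATTTA
CSF2 stood highest, with 8 copies in 318 bases (25.2 per kilobase), and CSF1 lowest, with 4 copies in 2154 bases (1.86 per kilobase). Between them lay IL6 (14.0), TNF (11.3), IL1B (9.84), CSF3 (8.20), IL11 (5.56), IL1A (4.34), IL24 (2.60) and LIF (2.19), all in copies of ATTTA per kilobase. CSF1, LIF and IL24 were not far above the median of all genes, at percentiles 55.9, 61.4 and 68.0. This search was added after the tables had been seen, and a narrower choice of transcripts made before it had matched only 6 members, all 6 above its median and 5 with TTATTTATT. A match is a description of letters, not evidence of decay.

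Promoter windows of 250 bases before to 50 after the RefSeq start (GRCh38.p14) were found for 7 members. The NF-kB pattern (GGG, any 5 bases, then CC), searched on both strands, was in 3 of the 7 (CSF2, IL6 and TNF) against 58.7% of 35116 windows of the same length, so it is no commoner among the members. The AP-1 pattern TGANTCA was in 2 (IL11 and IL1A) against 7.7%, the C/EBP pattern TTNNGNAA in 5 against 36.8%, and TATAAA in 2 (IL1A and TNF) against 11.5%. The 250 bases before the start are printed for CSF2 and IL6, genes that moved by large steps below, with matches to the NF-kB pattern on either strand in capitals.
CSF2, chr5:132073539-132073788, plus strand: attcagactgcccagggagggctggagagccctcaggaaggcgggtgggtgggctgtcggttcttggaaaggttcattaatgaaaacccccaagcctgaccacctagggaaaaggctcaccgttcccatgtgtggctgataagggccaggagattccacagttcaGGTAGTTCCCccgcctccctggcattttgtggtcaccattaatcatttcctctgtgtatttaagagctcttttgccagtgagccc
IL6, chr7:22726950-22727199, plus strand: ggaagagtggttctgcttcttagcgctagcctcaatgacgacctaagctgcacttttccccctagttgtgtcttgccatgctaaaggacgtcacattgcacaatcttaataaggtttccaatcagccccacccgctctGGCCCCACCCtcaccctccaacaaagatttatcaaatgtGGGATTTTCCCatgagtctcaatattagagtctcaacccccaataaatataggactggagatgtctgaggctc
The CSF2 match starts 85 bases before the start, and the IL6 matches 112, 73 and 72 bases before it, the last 2 overlapping in 1 run.

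Levels are FPKM, which divides fragments by gene length and library total, so they can be compared between genes. Differences are of log2(FPKM + 1), which understates the change of low genes. Folds are ratios of the group means of FPKM with nothing added, so a fold can exceed what its log2 difference gives. The SE, interval and p-value printed beside a fold belong to the log2 difference. Adjusted p-values come from limma, with the Benjamini-Hochberg method applied to every gene tested in a table, and a gene was called at an adjusted p under 0.05. Values were compared within a table only. No label states that a group's 2 libraries are separate cultures, and the p-values therefore measure only the spread between those libraries, which may be technical. In bulk RNA, fewer cells making a transcript and less transcript per cell cannot be told apart. Read counts were not among the values used, so depth is unknown and no counting interval is given.

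The libraries were checked before the members were read. The targeted gene, METTL3, had levels of 4.39 and 4.80 FPKM in shM3 against 20.1 and 23.8 in B5, and of 270.5 to 312 in the add-back libraries. B5 replicate 2 stood apart: PIDD1 alone was listed there at 8234200 FPKM, while its other genes summed to 423171, and MYC was at 24.6 against 3.70 in B5 replicate 1. In the DMSO table HEXIM1, a gene known to rise with BET inhibitors, was at 26.5 and 29.4 in DMSO and between 69.6 and 76.7 in JQ1 and Molib. It was at 10.3 and 6.37 in the libraries labelled I-BET151, which in this gene go against their label. Their highest gene was MT2A, at 7864 and 9220, as it was in JQ1 and Molib (8692 to 9207). In DMSO the highest was S100A6, at 4195 and 5341. In the CTRL table the CTRL and JQ1 libraries had the small structured RNA RN7SL1 as their highest gene and 15.5% to 28.6% of the tested genes listed at 0, against at most 0.649% in MW_JQ1. METTL3 there was at 31.2 and 1.18 in CTRL, at 11.8 and 0 in JQ1, and at 212 and 234 in MW_JQ1. HEXIM1 there was at 63.4 and 52.0 in CTRL, 85.3 and 77.0 in JQ1, and 46.4 and 55.0 in MW_JQ1, which overlapped CTRL and lay below JQ1 although both groups carry the JQ1 label. The cell line's mesenchymal marker VIM was at 549 FPKM or more in every library, but SPARC, listed as a mesenchymal marker, reached only 2.13. Of the luminal epithelial markers, the estrogen receptor gene ESR1 was at 0.0599 or less in the knockdown and DMSO tables, whereas the keratin genes KRT8 (200 to 666), KRT18 (98.3 to 270.4) and KRT19 (191 to 990 FPKM) were high in all 3 tables. The T cell and B cell markers CD3E and MS4A1 were at 0 in every library of the knockdown and DMSO tables.

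In the knockdown table the members split. CSF2, CSF3, IL6, LIF and IL1B did not pass the test between shM3 and B5 but were higher in both add-back groups than in either. CSF1 was highest in B5. IL11 and IL1A were each higher in shM3 than in B5. TNF was under 1 FPKM in all 8 libraries and was not tested, which left 9 members.

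**Figure D1:**
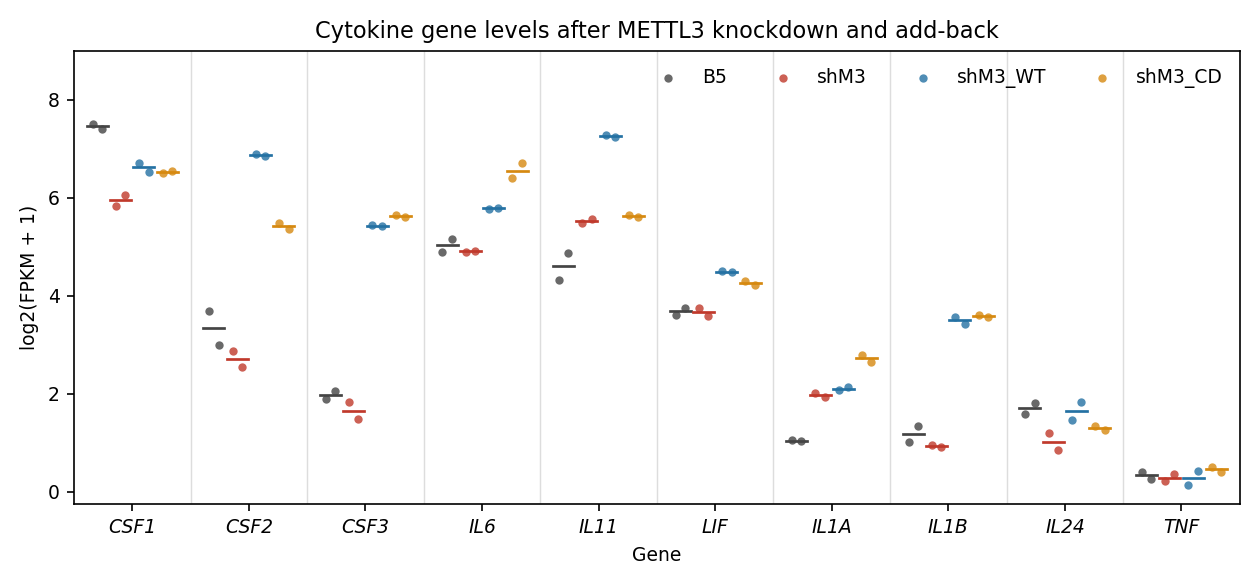
Level of each cytokine gene in the 8 libraries of the knockdown table, as log2(FPKM + 1). Points are libraries and bars the means of 2. CSF2, CSF3 and IL1B stand apart in the shM3_WT and shM3_CD libraries, CSF1 is highest in B5, and TNF is near 0 throughout.

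CSF1 (ENSG00000184371, hg38 chromosome 1, 109910242 to 109930992, plus strand), the macrophage growth factor, was at 180.3 and 169 FPKM in B5, at 56.0 and 65.9 in shM3, and on add-back at 104 and 91.6 for shM3_WT and 90.0 and 91.8 for shM3_CD. Both shM3 libraries were the lowest and both B5 libraries the highest, and only the add-back groups overlapped. Its level fell 2.87-fold with the knockdown (log2 difference -1.51, SE 0.10, adjusted p = 0.000101). It was 1.60-fold higher in shM3_WT than in shM3 (0.67, adjusted p = 0.0024) and 1.49-fold higher in shM3_CD (0.57, adjusted p = 0.0153). Both add-back groups stayed below B5, by 1.79-fold (adjusted p = 0.00155) and 1.92-fold (adjusted p = 0.00108).

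CSF2 (ENSG00000164400, chromosome 5, 132073790 to 132076170, plus strand), the granulocyte and macrophage factor whose promoter is printed above, was at 11.8 and 6.94 FPKM in B5, at 6.27 and 4.83 in shM3, and on add-back at 118 and 114 for shM3_WT and 44.0 and 39.9 for shM3_CD. No group overlapped another. The gene was 20.9-fold higher in shM3_WT than in shM3 (log2 difference 4.16, SE 0.22, adjusted p = 3.91e-05) and 7.56-fold higher in shM3_CD (2.72, adjusted p = 0.000909). The knockdown against B5 gave -0.63 and missed the threshold (adjusted p = 0.0567). It was called without B5 replicate 2 (-0.98, adjusted p = 0.00742). With the replicate numbers as a block the adjusted p was 0.0258.

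CSF3 (ENSG00000108342, chromosome 17, 40015361 to 40017813, plus strand), the neutrophil growth factor, was at 2.73 and 3.15 FPKM in B5, at 2.54 and 1.80 in shM3, and on add-back at 42.4 and 41.8 for shM3_WT and 48.9 and 47.8 for shM3_CD. The 4 add-back libraries lay far above the others. The rise over shM3 was 19.4-fold in shM3_WT (3.78, SE 0.13, adjusted p = 1.18e-05) and 22.3-fold in shM3_CD (3.97, adjusted p = 2.07e-05). The groups shM3_WT and shM3_CD were not called apart (-0.19, 95% interval -0.49 to 0.10, adjusted p = 0.299). Between shM3 and B5 the difference was -0.32 (adjusted p = 0.0845), and it was called without shM3 replicate 1 (-0.49, adjusted p = 0.0291).

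IL6 (ENSG00000136244, chromosome 7, 22725884 to 22732002, plus strand), the main acute-phase inducer of its family, was at 28.8 and 34.8 FPKM in B5, at 28.5 and 29.3 in shM3, and on add-back at 53.6 and 54.6 for shM3_WT and 83.2 and 103.7 for shM3_CD. B5 and shM3 overlapped, and the add-back groups lay above them without overlapping each other. Against B5, shM3 differed by -0.13 (adjusted p = 0.465). IL6 was 1.87-fold higher in shM3_WT than in shM3 (0.88, SE 0.13, adjusted p = 0.002) and 3.23-fold higher in shM3_CD (1.65, adjusted p = 0.000894). The gene overlaps STEAP1B and AC073072.1 on the opposite strand, and strand use in counting is unknown here, so their reads cannot be told apart.

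IL11 (ENSG00000095752, chromosome 19, 55364389 to 55370463, minus strand), a relative of IL6 known from bone-metastatic breast cancer cells, was at 18.9 and 28.4 FPKM in B5, at 43.9 and 46.3 in shM3, and on add-back at 154 and 150.5 for shM3_WT and 49.3 and 47.5 for shM3_CD. The shM3_WT libraries stood alone at the top, and shM3_CD lay just above shM3. It was 1.90-fold higher in shM3 than in B5 (0.93, SE 0.16, adjusted p = 0.0048). Over shM3 it was a further 3.38-fold higher in shM3_WT (1.74, adjusted p = 0.000337), whereas shM3_CD differed from shM3 by 0.10 (95% interval -0.28 to 0.49, adjusted p = 0.739).

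LIF (ENSG00000128342, chromosome 22, 30240447 to 30246851, minus strand), a cytokine that keeps stem cells undifferentiated, was at 11.2 and 12.5 FPKM in B5, at 12.4 and 10.9 in shM3, and on add-back at 21.7 and 21.2 for shM3_WT and 18.8 and 17.7 for shM3_CD. B5 and shM3 overlapped and the add-back groups lay above both. Against B5, shM3 differed by -0.02 (adjusted p = 0.889). LIF was 1.84-fold higher in shM3_WT than in shM3 (0.83, SE 0.10, adjusted p = 0.000863) and 1.56-fold higher in shM3_CD (0.60, adjusted p = 0.0116). It overlaps its antisense genes LIF-AS1 and AC004264.1, and the same limit on strand holds.

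IL1A (ENSG00000115008, chromosome 2, 112773915 to 112784590, minus strand), the interleukin-1 form that can act while still in the cell, was at 1.07 and 1.05 FPKM in B5, at 3.04 and 2.82 in shM3, and on add-back at 3.22 and 3.38 for shM3_WT and 5.90 and 5.27 for shM3_CD. The order was B5, then shM3 and shM3_WT close together, then shM3_CD. Knockdown cells had 2.77-fold more than B5 (0.93, SE 0.11, adjusted p = 0.00107), shM3_CD had 1.90-fold more than shM3 (0.74, adjusted p = 0.00958), and shM3_WT was not called against shM3 (0.13, 95% interval -0.14 to 0.40, adjusted p = 0.411).

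IL1B (ENSG00000125538, chromosome 2, 112829751 to 112836903, minus strand), the secreted interleukin-1 form, was at 1.02 and 1.52 FPKM in B5, at 0.942 and 0.889 in shM3, and on add-back at 10.9 and 9.67 for shM3_WT and 11.2 and 10.8 for shM3_CD. The 2 add-back groups overlapped each other and lay above all B5 and shM3 libraries. The rises over shM3 were 11.2-fold (2.56, SE 0.14, adjusted p = 4.6e-05) and 12.0-fold (2.65, adjusted p = 0.000201). Between shM3 and B5 the difference of IL1B was -0.24 (95% interval -0.56 to 0.09, adjusted p = 0.22).

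IL24 (ENSG00000162892, chromosome 1, 206897443 to 206904139, plus strand), an interleukin-10 family member, was at 2.00 and 2.51 FPKM in B5, at 1.28 and 0.793 in shM3, and on add-back at 1.77 and 2.56 for shM3_WT and 1.52 and 1.39 for shM3_CD. It fell 2.18-fold in shM3 (-0.68, SE 0.19, adjusted p = 0.0269) and was 2.09-fold higher in shM3_WT than in shM3 (0.64, adjusted p = 0.0337). Leaving out B5 replicate 2 (adjusted p = 0.119) ended the call of the fall, as did leaving out shM3 replicate 2 (0.134), and the rise was not called without shM3 replicate 2 (0.163) or shM3_WT replicate 2 (0.173). TNF (ENSG00000232810, chromosome 6, 31575567 to 31578336, plus strand), the tumour necrosis factor gene, was between 0.0935 and 0.424 FPKM in the 8 libraries, with overlap between most groups.

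**Figure D2:**
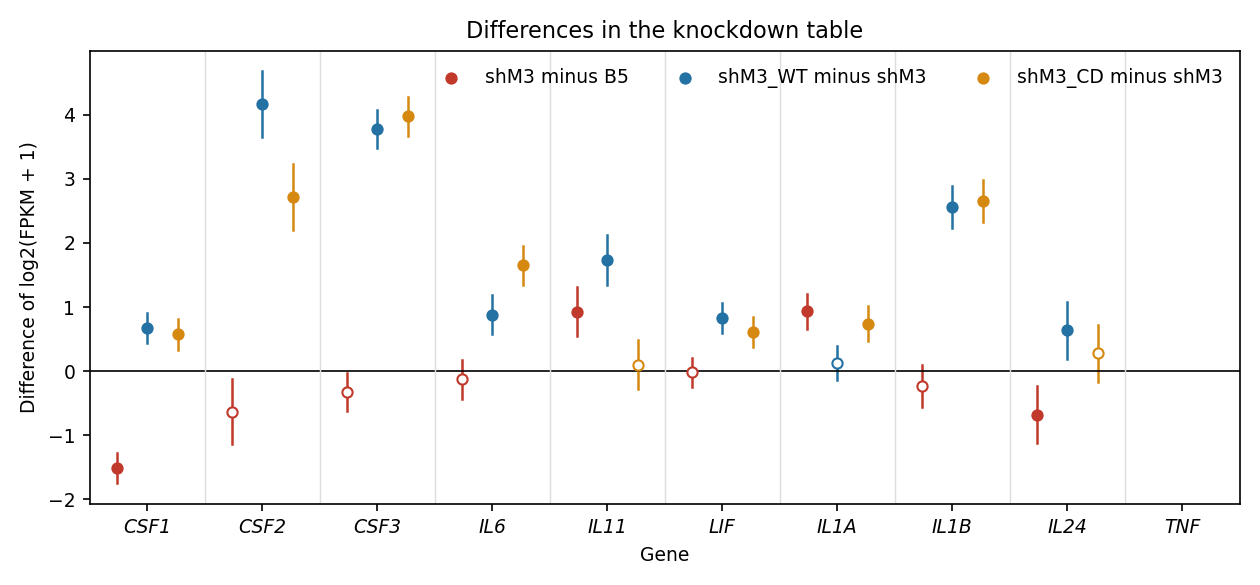
Difference of log2(FPKM + 1) in 3 comparisons of the knockdown table, with 95% intervals from limma. Filled points passed an adjusted p under 0.05 and open points did not. The knockdown (red) lies near or below 0 for most genes but above it for IL11 and IL1A, and the add-backs (blue, orange) part at CSF2, IL6, IL11 and IL1A.

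Between shM3 and B5, 4 of 9 tested members were called, 2 higher and 2 lower, beside 37.8% of all 14638 genes tested (17.9% higher and 19.9% lower), a share close to theirs. Between shM3_WT and shM3, 8 of 9 were called and all 8 were higher, beside 39.4% of all genes (16.7% higher and 22.7% lower, or 2451 and 3321 genes, which became 2841 and 2745 with median scaling). The median difference of the 9 was 0.88, beside -0.08 over all genes. Between shM3_CD and shM3, 7 were higher and none lower, beside 11.4% of all genes (6.82% higher and 4.59% lower), with a median of 0.74 beside 0.01. Of these 7, CSF1, LIF and IL1A were not called when some single libraries were left out. In those fits most calls over all genes were lost too. CSF1 was not called without shM3 replicate 1 (adjusted p = 0.0835), shM3_CD replicate 1 (0.0765) or shM3_CD replicate 2 (0.0878). LIF was not called without shM3 replicate 2 (0.072), shM3_CD replicate 1 (0.0764) or shM3_CD replicate 2 (0.0561). IL1A was not called without shM3 replicate 1 (0.0501), shM3 replicate 2 (0.0623) or shM3_CD replicate 1 (0.0729).

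The 2 add-back groups were compared with each other directly, since both carry METTL3 above the B5 level. CSF2 was 2.76-fold higher in shM3_WT than in shM3_CD (log2 difference 1.44, SE 0.22, adjusted p = 0.00458) and IL11 3.15-fold higher (1.63, SE 0.16, adjusted p = 0.00136). IL6 was 1.73-fold lower in shM3_WT (-0.77, SE 0.13, adjusted p = 0.00633) and IL1A 1.69-fold lower (-0.61, SE 0.11, adjusted p = 0.00986). The IL1A call was lost without shM3_WT replicate 1 (adjusted p = 0.0552) or shM3_CD replicate 1 (0.0689). The other 5 were not called: CSF1 differed by 0.10 (95% interval -0.14 to 0.34), LIF by 0.22 (-0.01 to 0.46), IL1B by -0.09 (-0.42 to 0.23), IL24 by 0.35 (-0.09 to 0.80) and CSF3 as given above. These 4 of 9 stand beside 25.9% of all genes, of which 1494 (10.2%) were higher and 2291 (15.7%) lower as deposited, and 1962 and 1566 after scaling libraries to equal medians.

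Most members were higher in the add-back groups than in B5. In shM3_WT 7 of 9 were higher than B5 and CSF1 was lower, beside 30.0% of all genes (1727 or 11.8% higher and 2659 or 18.2% lower, and 2470 and 2056 with median scaling). The largest of these differences by fold were CSF3 at 14.3-fold, CSF2 at 12.3-fold, IL1B at 8.10-fold and IL11 at 6.44-fold. In shM3_CD 7 were higher and CSF1 lower, beside 29.9% of all genes (14.8% higher and 15.2% lower), with CSF3 at 16.5-fold, IL1B at 8.68-fold, IL1A at 5.27-fold and CSF2 at 4.47-fold above B5. IL24 was not called in either (adjusted p = 0.873 and 0.152). These comparisons share the B5 libraries with each other and with the knockdown comparison.

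Genes around the cytokines in the same pathways were read from lists written for this purpose. The share of a list that was called ran from 35.3% to 50% in shM3 against B5 (37.8% of all genes), 40% to 64.7% in shM3_WT against shM3 (39.4%) and 16.7% to 30% in shM3_CD against shM3 (11.4%). Of 10 tested receptor genes, 4 fell and none rose in shM3 against B5, among them IL1R1, the receptor of both interleukin-1 forms (4.85 ± 0.0122 against 7.88 ± 0.582 FPKM, SD, n = 2, adjusted p = 0.00458), and CSF1R, the CSF1 receptor (0.351 ± 0.0136 against 1.80 ± 0.366, adjusted p = 0.00486). Of 25 NF-kB regulators 10 rose and 2 fell, with TRAF1, a signalling adaptor, at 15.9 ± 0.256 against 9.70 ± 0.343 (adjusted p = 0.00104) and the precursor gene NFKB2 at 59.4 ± 3.62 against 40.4 ± 2.28 (adjusted p = 0.00207). Their median difference was 0.32, beside 0.00 over all genes. Of 14 other cytokine genes tested 5 rose and 2 fell, with IL32 up at 43.8 ± 0.525 against 12.6 ± 2.76 and the death ligand TNFSF10 down at 14.4 ± 1.61 against 49.2 ± 7.10. Of 17 JAK-STAT genes 4 rose and 2 fell, STAT3 among the former (55.8 ± 3.73 against 36.1 ± 2.81, adjusted p = 0.00242). Of 18 mRNA decay regulators 4 rose and 3 fell. The summed level of 10 haematopoietic markers was 93.7 to 105 FPKM in B5, 55.6 to 56.3 in shM3, 67.8 to 72.2 in shM3_WT and 51.0 to 62.1 in shM3_CD, with CD68 at 27.2 to 47.6, LAPTM5 at 6.64 to 36.1, CD14 at 4.28 to 16.8 and PTPRC at 0.290 or less. That of 8 luminal markers was 724 to 892 in B5, 1037 to 1073 in shM3, 645 to 713 in shM3_WT and 763 to 768 in shM3_CD. That of 6 mesenchymal markers was 1804 to 1862, 1346 to 1376, 1893 to 2018 and 1180 to 1298, in the same order, and that of 9 fibroblast and endothelial markers 17.2 to 19.8, 14.4 to 14.7, 6.96 to 7.08 and 11.2 to 11.7. The part of these markers in the results was not tested.

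In shM3_WT against shM3 the mRNA decay regulators, a list of AU-rich element binders and general decay factors, had 2 genes higher and 7 lower of 18. ZC3H12A, an endonuclease of inflammatory mRNAs, rose to 18.9 ± 1.04 FPKM from 4.72 ± 0.299 (adjusted p = 3.91e-05), while the AU-rich element binders ZFP36 (3.71 ± 0.191 from 11.9 ± 0.135, adjusted p = 0.000453) and ZFP36L1 (36.8 ± 1.18 from 69.3 ± 2.01, adjusted p = 0.000252) fell. The same 3 genes led the list in shM3_CD against shM3, where 1 of 18 rose and 2 fell: ZC3H12A was at 23.8 ± 0.715, ZFP36 at 5.95 ± 0.494 and ZFP36L1 at 46.7 ± 0.00571. Of the NF-kB regulators 6 rose and 5 fell in shM3_WT, and 5 rose and 1 fell in shM3_CD. BIRC3, an NF-kB target that restrains cell death, rose to 23.8 ± 2.19 and 15.8 ± 0.0787 from 6.73 ± 1.58, and MAP3K14, the kinase of the alternative pathway, fell to 6.05 ± 0.484 and 4.33 ± 0.318 from 12.7 ± 1.299. Of 17 JAK-STAT genes 3 rose and 8 fell in shM3_WT, with STAT2 at 7.43 ± 0.0217 against 16.8 ± 1.28. Of 14 other cytokine genes 2 rose and 5 fell in shM3_WT, and 1 rose and 3 fell in shM3_CD. LTB, a TNF relative, was lower in both (5.07 ± 0.880 and 5.46 ± 0.239 against 12.5 ± 0.425). Of 10 receptor genes 2 rose and 2 fell in shM3_WT, and 2 rose and 1 fell in shM3_CD, with CSF1R higher in both (1.58 ± 0.303 and 1.87 ± 0.530).

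In the DMSO table every member at 1 FPKM or more in DMSO, which were 8 of the 10, was lower both with JQ1, a BET inhibitor, and with Molib. The libraries labelled I-BET151 went the other way, with most members higher than in DMSO. All compounds were labelled 0.5 µM and 3 days. The sample descriptions carry the letters LX for DMSO and Molib but not for I-BET151. Whether these groups were prepared together is not given, and the part of preparation in their differences was not tested.

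**Figure D3:**
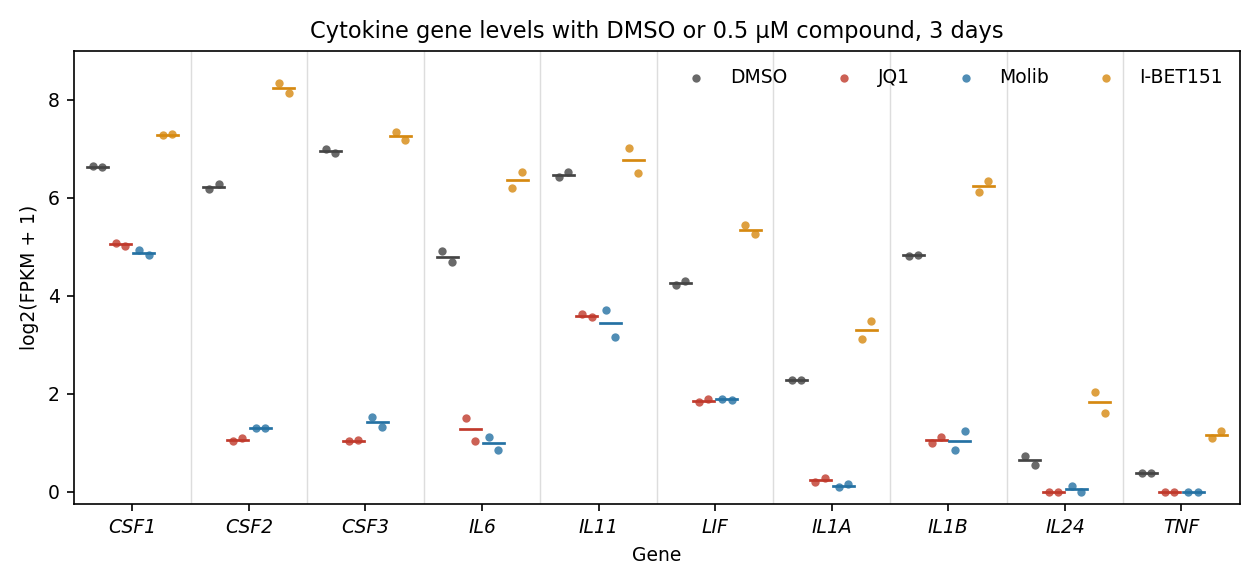
Level of each cytokine gene in the 8 libraries of the DMSO table, as log2(FPKM + 1), with points for libraries and bars for means of 2. In CSF1, CSF2, CSF3, IL6, IL11, LIF, IL1A and IL1B the JQ1 and Molib libraries lie below DMSO, and the libraries labelled I-BET151 lie at or above it.

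Among the colony-stimulating factors CSF3 had the largest falls in JQ1 and Molib. It was at 127 and 119.9 FPKM with DMSO, 1.03 and 1.08 with JQ1, 1.89 and 1.50 with Molib, and 162 and 143 under the I-BET151 label. The JQ1 and Molib libraries were thus near 1 FPKM, and DMSO and I-BET151 did not overlap them. The level was 117-fold lower in JQ1 than in DMSO (log2 difference -5.92, SE 0.12, adjusted p = 1.37e-06) and 72.8-fold lower in Molib (-5.53, adjusted p = 1.46e-06). In the libraries labelled I-BET151 it was 1.23-fold above DMSO without a call (0.30, adjusted p = 0.095).

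CSF2 was at 71.3 and 76.4 FPKM with DMSO, 1.05 and 1.13 with JQ1, 1.46 and 1.46 with Molib, and 321 and 279 under the I-BET151 label. No groups overlapped. It was 67.8-fold lower in JQ1 (-5.16, SE 0.11, adjusted p = 1.37e-06), 50.7-fold lower in Molib (-4.93, adjusted p = 1.46e-06) and 4.06-fold higher in the libraries labelled I-BET151 (2.01, adjusted p = 7.03e-05). CSF1 had the smallest falls of these 3 in JQ1 and Molib. It was at 99.6 and 97.3 with DMSO, 32.7 and 31.5 with JQ1, 29.3 and 27.3 with Molib, and 154 and 156 under the I-BET151 label, again with no overlap between groups. These were falls of 3.07-fold (-1.59, adjusted p = 5.21e-05) and 3.48-fold (-1.76, adjusted p = 3.21e-05), and a rise of 1.57-fold (0.65, adjusted p = 0.00232).

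IL6 was at 29.1 and 24.6 FPKM with DMSO, 1.83 and 1.06 with JQ1, 1.18 and 0.798 with Molib, and 71.9 and 91.6 under the I-BET151 label. JQ1 and Molib overlapped, and the other groups stood apart. The falls were 18.6-fold in JQ1 (-3.52, SE 0.20, adjusted p = 5.98e-05) and 27.1-fold in Molib (-3.81, adjusted p = 4.44e-05), and the rise 3.05-fold (1.57, adjusted p = 0.00195). IL11 kept more of its level. It was at 85.0 and 90.5 with DMSO, 11.3 and 10.8 with JQ1, 12.1 and 7.92 with Molib, and 129 and 89.7 under the I-BET151 label, which overlapped DMSO. It was 7.93-fold lower in JQ1 (-2.88, adjusted p = 0.000171) and 8.78-fold lower in Molib (-3.04, adjusted p = 0.000125), and was not called for I-BET151 (0.29, 95% interval -0.22 to 0.80, adjusted p = 0.355). LIF was at 17.6 and 18.8 with DMSO, 2.53 and 2.69 with JQ1, 2.72 and 2.67 with Molib, and 42.2 and 37.4 under the I-BET151 label. It was 6.98-fold lower in JQ1 (-2.41, adjusted p = 2.38e-05), 6.76-fold lower in Molib (-2.38, adjusted p = 2.65e-05) and 2.18-fold higher in I-BET151 (1.08, adjusted p = 0.000767).

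IL1B was at 27.2 and 27.6 FPKM with DMSO, 0.998 and 1.16 with JQ1, 0.805 and 1.35 with Molib, and 68.1 and 80.5 under the I-BET151 label. JQ1 and Molib overlapped near 1 FPKM. Each was 25.4-fold below DMSO (-3.77, SE 0.15, adjusted p = 1.63e-05, and -3.79, adjusted p = 1.84e-05), and the libraries labelled I-BET151 were 2.71-fold above it (adjusted p = 0.00105). IL1A, at 3.87 and 3.82 with DMSO, was at 0.153 and 0.208 with JQ1, 0.0676 and 0.107 with Molib, and 7.71 and 10.2 under the I-BET151 label, with no overlap between groups. The differences were -2.04 (adjusted p = 0.000171), -2.16 (adjusted p = 0.000127) and 1.03 (adjusted p = 0.00355), in the same order.

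IL24 and TNF reached 1 FPKM only in the libraries labelled I-BET151, so they entered the test through the group in which they are high, and their calls are not counted below. IL24 was at 0.660 and 0.457 FPKM with DMSO, 0 in both JQ1 libraries, 0.0750 and 0 with Molib, and 3.12 and 2.05 under the I-BET151 label. TNF was at 0.294 and 0.309 in DMSO, 0 in all JQ1 and Molib libraries, and 1.12 and 1.36 under the I-BET151 label. The IL24 calls in JQ1 (adjusted p = 0.0334) and Molib (adjusted p = 0.0442) were lost when any 1 of the libraries compared was left out, and no fold is given against a listed 0.

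**Figure D4:**
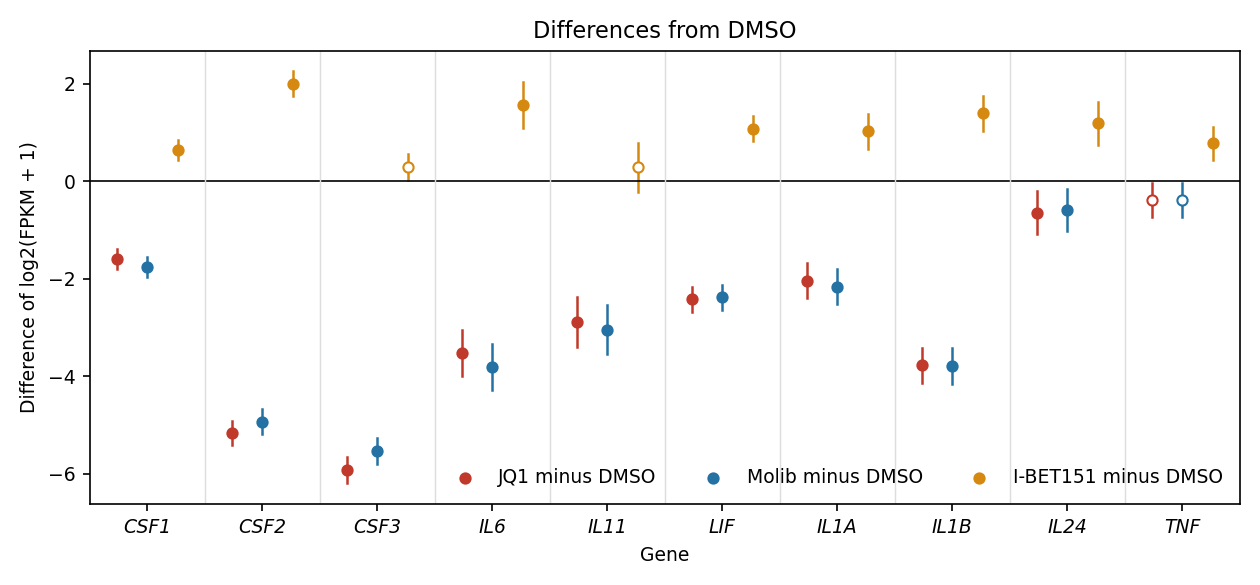
Difference of log2(FPKM + 1) from DMSO for each compound, with 95% intervals from limma. Filled points passed an adjusted p under 0.05 and open points did not. JQ1 and Molib lie side by side below 0 for each gene, CSF3 and CSF2 lowest, and I-BET151 lies above 0.

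Leaving out IL24 and TNF, all 8 remaining members were called lower in JQ1, beside 35.1% of all 14936 genes tested (14.5% higher and 20.6% lower), and all 8 were lower in Molib, beside 35.3% (14.8% higher and 20.5% lower). The median differences of the 8 were -3.20 and -3.41, beside -0.04 and -0.03 over all genes. In the libraries labelled I-BET151, 6 of the 8 were called higher and none lower, beside 28.0% of all genes (13.9% higher and 14.1% lower), with a median of 1.06 beside 0.00. Of the 8, IL1A reached 1 FPKM only in DMSO and in the libraries labelled I-BET151. It therefore enters every count against JQ1 or Molib through groups in which it is high. The 3 comparisons share the DMSO libraries.

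JQ1 and Molib were then compared with each other, and limma called none of the 10 members and none of the 14936 genes. At an unadjusted p under 0.05 there were 1227 genes (8.22%), with CSF3 the only member (log2 difference -0.39, 95% interval -0.66 to -0.11, adjusted p = 0.528). For the remaining members the interval of the JQ1 minus Molib difference ran from -0.03 to 0.38 for CSF1, -0.49 to 0.02 for CSF2, -0.18 to 0.76 for IL6, -0.35 to 0.67 for IL11, -0.29 to 0.22 for LIF, -0.24 to 0.48 for IL1A and -0.35 to 0.37 for IL1B. For IL24 it ran from -0.49 to 0.38 and for TNF from -0.34 to 0.34, which is close to the distance of both compounds from DMSO in these 2 low genes. A missing call does not show that the compounds act alike. The libraries labelled I-BET151 differed from both in all 8 members other than IL24 and TNF, each lower in JQ1 (beside 44.6% of all genes, 20.1% higher and 24.6% lower) and each lower in Molib (beside 43.5%, 19.9% higher and 23.6% lower). CSF2 was 276-fold lower in JQ1 and 206-fold lower in Molib than in the libraries labelled I-BET151, CSF3 144-fold and 89.9-fold, IL1B 68.9-fold and 68.9-fold, and IL6 56.6-fold and 82.7-fold. The smallest fold among the 8 was in CSF1, at 4.82-fold and 5.47-fold. HEXIM1 there goes against the label, while MT2A is the highest gene as in JQ1 and Molib. These values are therefore given for the libraries, and what compound the cells received was not tested.

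The pathway lists had smaller median differences than the members, and the share of a list that was called ran from 36% to 61.5% in JQ1, 27.8% to 69.2% in Molib and 22.2% to 63.6% under the I-BET151 label, beside the 35.1%, 35.3% and 28.0% of all genes given above. Of 25 NF-kB regulators none rose and 9 fell in JQ1 (median -0.36) and none rose and 10 fell in Molib (median -0.26), while 11 rose and 2 fell in the libraries labelled I-BET151 (median 0.36). TRAF1 was at 2.75 ± 0.218 in JQ1, 2.97 ± 0.228 in Molib and 14.3 ± 0.222 in DMSO (adjusted p = 5.08e-05 and 5.91e-05), and the kinase gene IKBKE at 6.29 ± 0.308, 7.95 ± 0.225 and 20.6 ± 0.0709. In the libraries labelled I-BET151 the feedback inhibitor TNFAIP3 was at 17.2 ± 0.826 against 5.80 ± 0.717 (adjusted p = 0.000645). Of 13 other cytokine genes 2 rose and 6 fell in JQ1, 2 rose and 7 fell in Molib, and 6 rose and 1 fell in I-BET151. CLCF1, an IL6-family cytokine, fell to 4.23 ± 0.283 and 4.96 ± 0.310 from 11.8 ± 0.677, and LTB rose in I-BET151 to 12.7 ± 6.70 from 1.16 ± 0.143.

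Among 11 receptor genes 2 rose and 4 fell in JQ1, and 2 rose and 2 fell in Molib. Those of lowered cytokines went both ways. IL11RA and LIFR were higher in both: IL11RA at 7.98 ± 0.698 and 10.1 ± 0.752 against 3.55 ± 0.580 FPKM, and LIFR at 4.60 ± 0.374 and 4.05 ± 0.288 against 2.39 ± 0.148. CSF1R was lower in both, at 0.251 ± 0.287 and 0.160 ± 0.0219 against 1.90 ± 0.145 (adjusted p = 0.00248 and 0.00174), as was the CSF2 receptor gene CSF2RA, at 3.42 ± 0.198 and 3.30 ± 0.827 against 5.44 ± 0.641 (adjusted p = 0.038 and 0.027), named here after its values were seen. In the libraries labelled I-BET151, 7 receptor genes rose and none fell, with TNFRSF1B at 17.1 ± 3.97 against 2.49 ± 0.146. Of 18 JAK-STAT genes 5 rose and 4 fell in JQ1, 4 rose and 3 fell in Molib, and 1 rose and 3 fell in I-BET151, with STAT5A down in JQ1 to 1.93 ± 0.115 from 7.17 ± 0.0205. Of 18 mRNA decay regulators 2 rose and 5 fell in JQ1, 1 rose and 4 fell in Molib, and 4 rose and 6 fell in I-BET151. ZFP36 rose in JQ1 to 30.4 ± 14.5 and in Molib to 40.1 ± 0.559 from 4.12 ± 0.647 (adjusted p = 0.0008 and 0.000377), and ZC3H12A fell to 9.51 ± 0.277 and 9.64 ± 0.0781 from 23.1 ± 0.0576. The summed level of 10 haematopoietic markers moved with the members, at 53.4 to 61.3 FPKM in DMSO, 26.7 to 32.3 in JQ1 and Molib, and 68.6 to 76.8 in the libraries labelled I-BET151. All 10 were listed, with CD68 at 20.6 to 45.1 and LAPTM5 at 4.08 to 32.1, while the pan-leukocyte marker PTPRC reached 0.204 and CD3E and MS4A1 were at 0. The summed level of 8 luminal epithelial markers was 598 to 600.2 in DMSO, 1544 to 1642 in JQ1 and Molib, and 737 to 740.3 in the libraries labelled I-BET151. The part of either in these results was not tested.

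The CTRL table gave a further JQ1 comparison, in libraries where many genes are listed at 0. A listed 0 can be a failed estimate there, since METTL3 itself is at 0 in 1 library, and values are given by library. Here JQ1 and CTRL libraries share the high RN7SL1 level, and MW_JQ1 does not, so the kind of library and the MW_JQ1 group cannot be told apart.

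**Figure D5:**
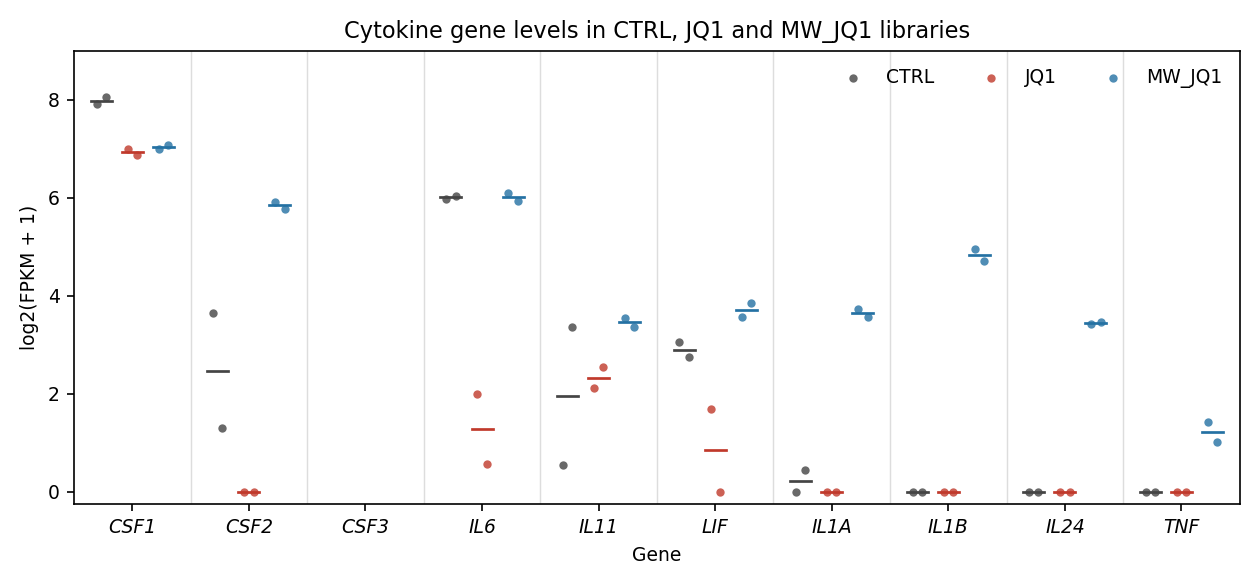
Level of each cytokine gene in the 6 libraries of the CTRL table, as log2(FPKM + 1), with points for libraries and bars for means of 2. IL6 and CSF1 lie lower in JQ1 than in CTRL, and IL1A, IL1B, IL24 and TNF lie above 1 FPKM only in MW_JQ1, and CSF3 is not in this table.

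IL6 was at 62.0 and 64.6 FPKM in CTRL, 2.99 and 0.485 in JQ1, and 67.6 and 60.3 in MW_JQ1. CTRL and MW_JQ1 overlapped, and both lay above JQ1. CSF1 was at 239 and 264 in CTRL, 127 and 116 in JQ1, and 127 and 133 in MW_JQ1, with CTRL above the rest. CSF2 was at 11.4 and 1.45 in CTRL, 0 in both JQ1 libraries, and 59.2 and 53.7 in MW_JQ1. LIF was at 7.34 and 5.67 in CTRL, 2.24 and 0 in JQ1, and 10.8 and 13.4 in MW_JQ1. IL11 was at 0.466 and 9.31 in CTRL, 3.31 and 4.80 in JQ1, and 10.6 and 9.33 in MW_JQ1, so that its CTRL libraries spanned those of JQ1. Of 10 haematopoietic markers 2 are in this table (CD14 and LAPTM5), and they summed to 29.5 to 42.0 FPKM in CTRL, 0 to 3.18 in JQ1 and 29.4 to 32.0 in MW_JQ1. The 5 luminal markers listed summed to 558 to 584, 1188 to 1301 and 1504 to 1562, the 5 fibroblast and endothelial ones to 12.1 to 22.9, 1.64 to 7.55 and 13.5 to 15.6, and the 6 mesenchymal ones to 1619 to 1837, 1373 to 1413 and 1667 to 2069, in the same order. Their part in these results was not tested.

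Between JQ1 and CTRL limma called no gene of 13261 and no member, against 2048 genes (15.4%) at an unadjusted p under 0.05, among them CSF1 (log2 difference -1.04, adjusted p = 0.0948), IL6 (-4.72, adjusted p = 0.0805), CSF2 (-2.47, adjusted p = 0.307) and LIF (-2.05, adjusted p = 0.315). For these 4 the groups did not overlap, a count that cannot be weighed because the share over all genes was not taken. CSF2 was called without CTRL replicate 2 (-3.64, adjusted p = 0.0469). The authors' deposited table for these samples is named mw_vs_JQ1, and its columns do not name the groups or direction. It lists log2 fold changes of -1.15 for CSF1 (adjusted p = 6.06e-20), -3.25 for IL6 (adjusted p = 9.6e-11) and -5.17 for CSF2 (adjusted p = 0.0121). These values cannot be assigned to JQ1 against CTRL. In the authors' deposited table the other members have an adjusted p between 0.0599 and 0.984.

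Among the 5 members not admitted to the test by MW_JQ1 alone, MW_JQ1 differed from JQ1 in 2, both higher, beside 15.2% of all genes (13.5% higher and 1.62% lower), and from CTRL in 1, CSF1, which was lower, beside 15.1% (13.3% higher and 1.88% lower). Over all genes the median difference was 0.75 and 0.61, and 0.23 and 0.20 with median scaling, so that the typical tested gene was higher in MW_JQ1. IL1A was at 12.3 and 10.8 FPKM in MW_JQ1, IL1B at 29.8 and 25.1, IL24 at 9.75 and 10.0, and TNF at 1.69 and 1.01. All 4 were at 0 in both JQ1 libraries, and in CTRL at 0 except for IL1A at 0.351 in replicate 2. They entered the test only through MW_JQ1, so their calls are not counted. Of the rest, CSF2 (log2 difference 5.84, adjusted p = 0.0149) and IL6 (4.74, adjusted p = 0.00456) were higher in MW_JQ1 than in JQ1, and CSF1 lower than in CTRL (-0.95, adjusted p = 0.0215). None of these calls was left without MW_JQ1 replicate 1 or without MW_JQ1 replicate 2, where most calls over all genes were lost too. The differences were then 5.77 and 5.91 for CSF2, 4.655 and 4.82 for IL6, and -0.91 and -0.98 for CSF1. The CSF2 call was also lost without JQ1 replicate 2 (adjusted p = 0.0677), and TNF's likewise (0.0512). LIF gained a call against JQ1 without JQ1 replicate 1 (adjusted p = 0.0213), CSF2 gained one against CTRL without CTRL replicate 1 (0.0129) or CTRL replicate 2 (0.0359), and IL11 without CTRL replicate 2 (0.0298). With the replicate block CSF1 had an adjusted p of 0.0679 against CTRL.

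For each member tested in both larger tables, the genes with the most similar pattern were those with the highest smaller Pearson correlation of log2(FPKM + 1) over the 8 libraries of the knockdown table and the 8 of the DMSO table, of 13908 genes. These libraries form 4 groups of 2 in each table, so the measure mostly follows group levels, and no test was made. Nearest to CSF2 were the chemokine genes CXCL2 (r at least 0.99) and CXCL8 (0.99), which were also nearest to LIF (0.98 for both). CSF3 and IL1B were among each other's nearest genes (0.98), and INAVA was near both. IL1A was nearest to PTGS2, the inducible cyclooxygenase (0.98), CSF1 to LRP5 (0.99), IL6 to DNER (0.97), IL11 to EIF5A (0.97) and IL24 to TFF2 (0.92). The members therefore did not share a single nearest neighbour across both tables.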

How the data were processed

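RNA from MDA-MB-231 cells was sequenced, and the authors deposited 3 tables of FPKM. Depth is unknown, since these hold no read counts. Only 1 table names FPKM, and the unit of the rest was taken from their values. The submitters' processing notes name CASAVA 1.4, HISAT2 2.1.0, Cufflinks 2.2.1 and the hg38 genome without role or order. The sources used here do not give options or strand use. Of 2 library preparations in the labels' protocols, none is tied to a sample. 1 table also holds the authors' deposited log2 fold changes, p-values and signal means per gene, per the file headers, which name no groups.

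The filter was 1 FPKM in 2 or more libraries of a table (it left 14638, 14936 and 13261 genes), and log2(FPKM + 1) of all groups of a table was fitted with limma 3.58.1 in R 4.3.3 (lmFit, contrasts, eBayes with trend). There were 15 comparisons. Genes were called at a Benjamini-Hochberg adjusted p under 0.05, and the code was tested on simulated data. Alternatives were a replicate block, other pseudocounts and filters, median scaling, fits of 2 groups, and leaving out each library. All 10 members are named, with up to 3 genes of smallest adjusted p from each list of receptors, other cytokines, NF-kB regulators, JAK-STAT genes and mRNA decay regulators. The members and lists were chosen with earlier results of these data known. Locations are from GENCODE 29, matched by gene ID for all 10. For AU-rich elements the GENCODE basic transcript with the longest 3′ untranslated region was used, and regions of at least 50 bases formed the comparison. Promoters are RefSeq's, on GRCh38.p14. Summaries and figures were made with pandas 2.3.3 and matplotlib 3.10.9 under Python 3.11.15.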

Additional observations from a re-analysis of the deposited data

Results flagged for a closer look

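For several members, groups set against the same control differed from each other, by a direct limma test within each gene. The 2 add-back groups, each against the same shM3 libraries, differed in CSF2 (log2 difference 1.44 for shM3_WT minus shM3_CD, adjusted p = 0.00458), IL11 (1.63, adjusted p = 0.00136), IL6 (-0.77, adjusted p = 0.00633) and IL1A (-0.61, adjusted p = 0.00986), so that CSF2 and IL11 lean to shM3_WT and IL6 and IL1A to shM3_CD. METTL3 was at 311 to 312 FPKM in shM3_WT and 270.5 to 277 in shM3_CD, and its part in these differences was not tested.

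The libraries labelled I-BET151 differed from the JQ1 and Molib libraries in the 8 members that reached the filter in more than 1 group. Among these 8, IL1A reached it only in DMSO and under the I-BET151 label, where it is high. IL24 and TNF were tested only because they are high under the I-BET151 label, so their values are given as a description. For JQ1 minus I-BET151 the log2 difference was -2.24 in CSF1, -7.17 in CSF2, -6.22 in CSF3, -5.09 in IL6, -3.17 in IL11, -3.50 in LIF, -3.07 in IL1A and -5.18 in IL1B. The limma adjusted p-values of these 8 ran from 2.64e-07 to 6.03e-05. By value only, IL24 differed by -1.83 and TNF by -1.16. For Molib minus I-BET151 the log2 difference was -2.41 in CSF1, -6.93 in CSF2, -5.83 in CSF3, -5.38 in IL6, -3.33 in IL11, -3.46 in LIF, -3.18 in IL1A and -5.19 in IL1B. Here the limma adjusted p-values of the 8 ran from 3.37e-07 to 4.71e-05. IL24 differed by -1.77 and TNF by -1.16, again by value only. HEXIM1 in the libraries labelled I-BET151 (10.3 and 6.37 FPKM) lay below DMSO (26.5 and 29.4), while MT2A was their highest gene as in JQ1 and Molib. What compound those cells received was not tested.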

How the results depend on the processing

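Each result was recomputed with 1 choice changed, except that the replicate block in the DMSO table also dropped the JQ1 libraries. Of the members' differences, 1410 kept their direction and their side of the threshold, 42 were no longer called and 15 became called. A further 24 that were uncalled throughout changed sign. Some of these were differences of 0 that moved only by rounding error. No called difference changed sign. The number of members called, counted over all members tested, stayed within 1.5 times the main count except when single libraries were left out. Over those fits it ranged from 4 to 5 for shM3_CD against shM3, from 0 to 1 for JQ1 against CTRL, from 0 to 7 for MW_JQ1 against JQ1 and from 0 to 7 for MW_JQ1 against CTRL. A group left with 1 library was assumed to vary like the other groups. Without an MW_JQ1 library, IL1A, IL1B, IL24 and TNF also fall under the filter. At a pseudocount of 0.1 or 5 FPKM only IL24, TNF, CSF3, LIF and CSF2 changed a call.

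No shared effect of the replicate number was seen: same-numbered deviations from the group means correlated between -0.123 and 0.0421 across genes. This cannot tell whether same-numbered libraries were prepared together. With the replicate block 5 members were called in shM3 against B5, 7 in shM3_WT against shM3 and 8 in Molib against DMSO. MW_JQ1 against CTRL had 4, and the other blocked counts equalled the main ones. Over all genes the block called 2477 higher and 2805 lower in shM3 against B5, and 2357 and 3163 in shM3_WT against shM3. For Molib against DMSO it called 1607 and 2389, and for MW_JQ1 against CTRL 1433 and 147. The 4 members called there were IL1A, IL1B, IL24 and TNF, which entered the test only through MW_JQ1. In Molib against DMSO the JQ1 libraries left out with no block, a fit chosen after seeing the data, also gave 8, with IL24 lost (limma adjusted p = 0.0643, and 0.057 with the block). No paired analysis was possible for JQ1 of the DMSO table because its columns carry no replicate number. DESeq2 and edgeR were not run, since no table holds counts, and the lack of counts also limits what can be said of levels under 1 FPKM.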
